A study of Caenorhabditis elegans with 6 samples.

Results

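Many protein-coding genes of *Caenorhabditis elegans* are known only by a sequence name, made of the clone they were found on and a number, because no gene class has been given to them. Worms meet foreign chemicals and microbes mostly through the intestine, where they are known to induce enzymes that oxidise, reduce or hydrolyse such compounds, membrane transporters and secreted or lysosomal immune effectors. A large share of the genes in these responses carries sequence names, and for many of them no function has been assigned. The 60 sequence-named genes described here were those that stood highest in worms kept with CGP37157, a benzothiazepine that inhibits the mitochondrial sodium/calcium exchanger. They were chosen from their own values in these libraries. The score of a gene was the lowest log2(CPM + 0.5) of the 3 CGP37157 libraries minus the highest of the 3 control libraries, where CPM is the count scaled to a common library total. The rule scored 17189 sequence-named genes out of 46904 gene identifiers, left out R05D8.7 and R05D8.9, did not score the 11459 genes with a class name, and took the 60 highest scores.

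The worms were N2, the usual wild type of the laboratory. They were synchronised as larvae, moved as young adults to plates without drug (Control, none added according to the labels) or with 50 µM CGP37157, and collected on day 5 of treatment. Each group had 3 libraries. The labels do not say whether replicates were separate cultures, so p-values measure only the spread between these samples, which may be technical. All groups share the N2 background, and whole worms were extracted, so that a change in the number of cells of a type cannot be told apart from a change of RNA per cell.

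The control libraries held 21122852 to 21245713 counts and the CGP37157 libraries 23821727 to 24551795. Control replicate 2 stood apart from the other 5 libraries on the first principal component, at -60.28 against -14.58 to 36.48, and had the lowest TMM factor (0.8151, others 0.9552 to 1.1277). Of 31 marker genes of 7 tissues or stages, 22 were tested and 0 were called by edgeR or DESeq2 (0 with an unadjusted p under 0.05 in edgeR). Summed over the markers of each tissue, intestine had 542.9 to 885.9 CPM in the controls and 857.3 to 932.6 CPM in the CGP37157 libraries, and body wall muscle had 2041 to 3464.1 and 1723.8 to 2695.3 CPM. Neuron markers had 268.8 to 272.4 and 253.3 to 268.6 CPM, hypodermis 78.3 to 114.9 and 88.6 to 119.9, and germline and oocytes 1466.1 to 2203.2 and 1829.3 to 2608.6. Sperm markers lay at 2.49 to 3.79 and 2.6 to 4.03 CPM and embryo markers at 4.96 to 10.4 and 5.44 to 8.19 CPM. Most of the neuron, hypodermis and embryo sums came from snb-1, lin-26 and ceh-13, respectively, so these sums say little about the other markers. The ranges of the intestinal sum overlapped, with 2 of the 3 controls below all treated libraries and vha-6 at 191.7 to 274.4 CPM in the controls and 306.7 to 367.5 CPM in treated worms, and the part of intestinal RNA content in the levels below was not tested. The embryo marker med-1 was at 0 in all controls and at 0.084, 0 and 0.0419 CPM in CGP37157 replicates 1, 2 and 3, close to absent in both groups.

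All 60 genes were protein-coding in the annotation, and all passed the filter on low values, 1 CPM or more in at least 3 of the 6 libraries. For 10 of them all 3 controls lay under 1 CPM and for 23 at least 1 control did, so these passed through the treated group. Together the 60 genes took 0.0877, 0.0737 and 0.1011% of the counts in the control libraries and 0.4237, 0.5263 and 0.4184% in the CGP37157 libraries. Their log2 fold changes from edgeR, which are a description because the same contrast chose the genes, ran from 0.86 to 9.03 with a median of 2.38 (5.22-fold), beside a median of -0.014 over the 12385 genes tested. The fold change was above 2 in 58 genes, above 4 in 37, above 10 in 20 and above 100 in 4. The plot of each gene by library shows no overlap between the groups for any of the 60, which the rule itself fixes.

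**Figure D1:**
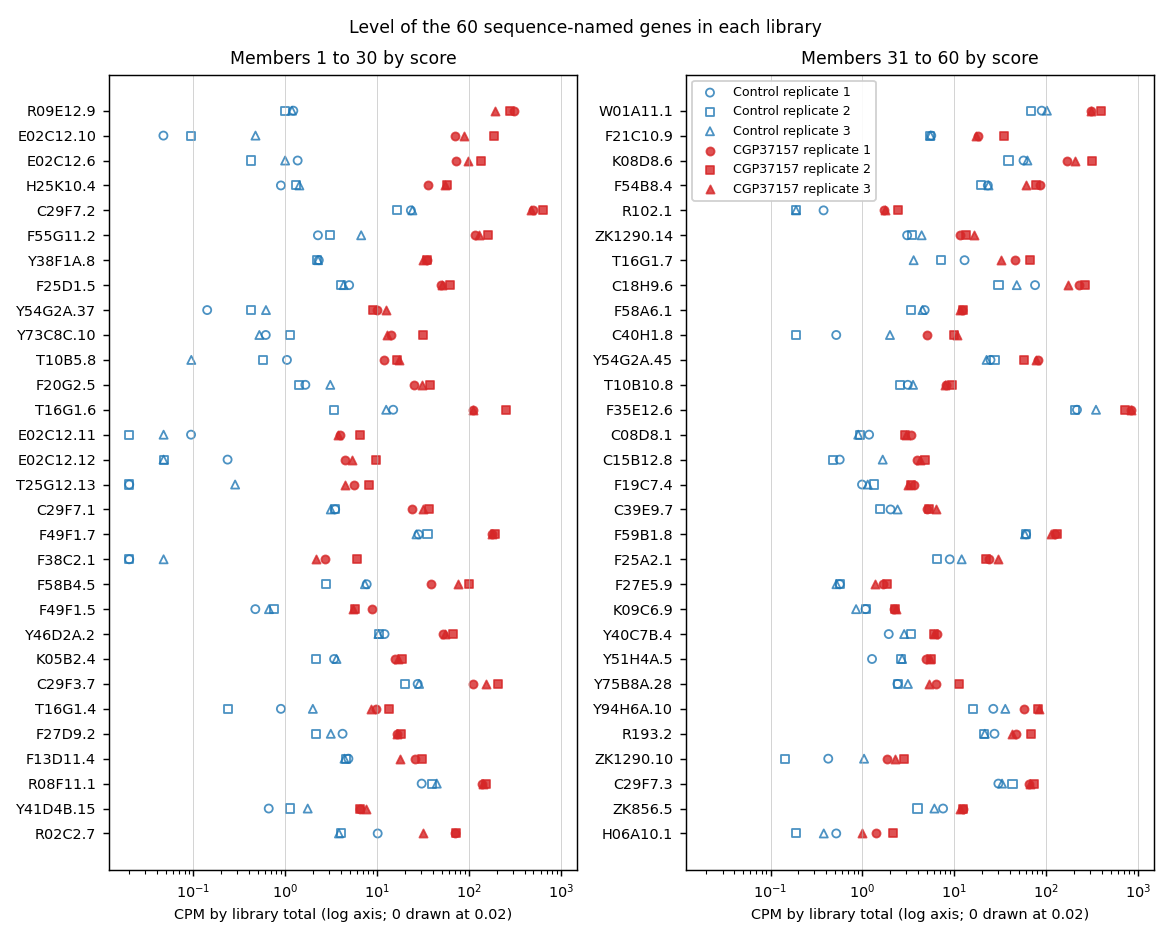
Level of each of the 60 genes in each library, in CPM on a log axis, with open blue symbols for the 3 Control libraries and filled red symbols for the 3 CGP37157 libraries and a level of 0 drawn at the left edge. Genes are ordered by score, from R09E12.9 at 6.79 to H06A10.1 at 0.564, and in every row all red symbols lie to the right of all blue ones.

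In that fit 51 of the 60 genes passed an adjusted p of 0.05, beside 1.16% of all genes tested that were higher (144 of 12385) and 0.234% that were lower (29 of 12385). Since the contrast chose the genes, nothing is read from that count. Leaving out CGP37157 replicate 1, 2 or 3 brought it to 30, 33 and 31. The filter was applied again to the remaining libraries. Genes with all 3 controls under 1 CPM then had too few libraries and were not tested in these 3 fits. They make up only a part of the fall, and other genes were still tested but no longer passed.

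**Figure D2:**
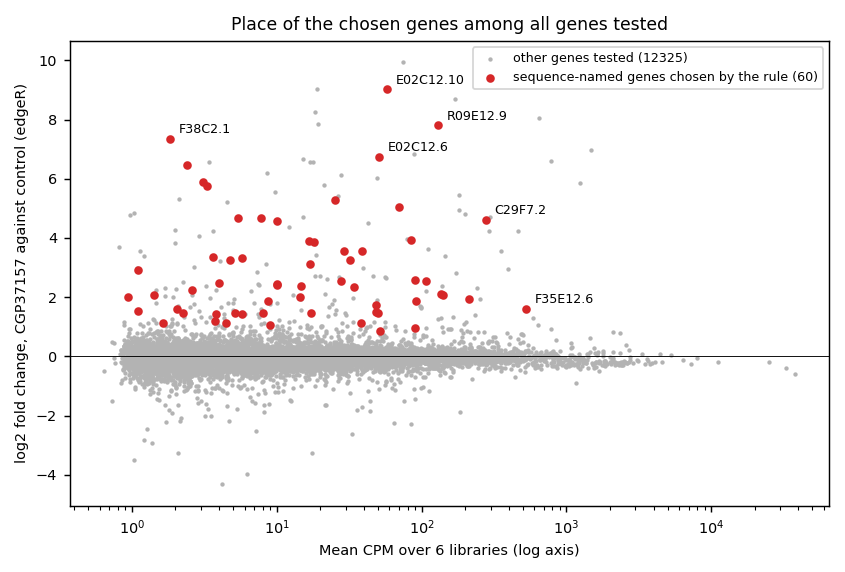
log2 fold change of CGP37157 against control from edgeR for the 12385 genes tested, against the mean CPM of the 6 libraries on a log axis, with the 60 chosen genes in red and all others in grey. The red points run from 0.86 to 9.03, with E02C12.10, R09E12.9 and F38C2.1 at the top.

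The levels within each group are also values the rule used, since it favours low controls and high treated libraries, so they are given as a description and nothing is read from their distance to other genes. Per kilobase of exon, the median level of the 60 genes was 2.34 CPM in control worms, beside 8.11 CPM over the 4654 scored genes that were tested, and the median gene lay at percentile 20.7 of those. With CGP37157 the median was 17.2 CPM per kilobase, at percentile 65.4, beside 8.2 CPM for the scored genes. Of the 60, 16 lay above the median of the scored genes in controls and 41 did so with the drug. The highest treated levels per kilobase were those of F35E12.6 (680.6 CPM), R09E12.9 (564.6 CPM) and C29F7.2 (406.5 CPM), and F35E12.6 was already at 219.0 CPM per kilobase in control worms. R09E12.9 and C29F7.2 had 2.46 and 16.2. Exonic length, which the rule did not use, had a median of 1189 bases against 1174 in the scored genes tested, with a range of 387 to 5916. The genes had a median of 6 exons against 5, and 73.3% had a single annotated transcript against 64.2%.

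A functional term was at hand for 34 of the genes, and 26 had none. The genes without a term had a median log2 fold change of 3.19 over the group and a range of 1.11 to 9.03. They took 229.3, 144.8 and 196.1 CPM together in the controls and 1846, 2518.2 and 1732.5 CPM in the CGP37157 libraries.

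R09E12.9 (WBGene00044514, chromosome V, 777600 to 778245, build WBcel235), which had the highest score, was at 1.22, 0.993 and 1.18 CPM in control replicates 1, 2 and 3 and at 308.0, 280.5 and 190.6 CPM in the treated replicates, a log2 difference of 7.80 (SE 0.31). E02C12.10 was at 0.0471, 0.0945 and 0.473 CPM against 69.7, 187.6 and 87.9, a log2 difference of 9.03 (SE 0.61). It was the largest of the 60, and 10 of the 13 control counts lay in control replicate 3, without which the value was 10.45. E02C12.6 was at 1.36, 0.425 and 0.994 CPM against 72.3, 134.5 and 96.6, which is 6.74 (SE 0.35) on the log2 scale. H25K10.4 was at 0.894, 1.32 and 1.42 CPM against 35.9, 56.9 and 55.1, which is 5.27 (SE 0.33). In each of these genes the lowest treated library lay far above the highest control, which is the distance that the score measures and that chose them.

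C29F7.2 stood at 23.2, 16.5 and 24.1 CPM in the controls and 491.9, 640.3 and 465.2 with CGP37157, a log2 difference of 4.61 (SE 0.23). C29F7.1, its neighbour, was at 3.48, 3.5 and 3.12 CPM against 23.7, 36.6 and 31.1, a log2 difference of 3.11 (SE 0.25). Both had close control values. T16G1.6 was at 14.9, 3.4 and 12.5 CPM against 110.3, 254.2 and 109.5, a log2 difference of 3.94 (SE 0.46), and T16G1.4 was at 0.894, 0.236 and 1.99 CPM against 9.74, 13.3 and 8.5, a log2 difference of 3.33 (SE 0.50), or 4.17 without control replicate 3. In both, control replicate 2 was the lowest control and CGP37157 replicate 2 the highest treated library. F58B4.5 was at 7.67, 2.79 and 7.34 CPM against 38.4, 98.4 and 76.5, a log2 difference of 3.57 (SE 0.38), and had the same order of replicate 2 in both groups.

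F49F1.7 was at 28.1, 35.2 and 26.7 CPM against 179.3, 191.4 and 179.3, a log2 difference of 2.53 (SE 0.26). F49F1.5 was at 0.471, 0.756 and 0.663 CPM against 8.86, 5.74 and 5.4, a log2 difference of 3.34 (SE 0.40). Y46D2A.2 was at 12.0, 10.5 and 10.3 CPM against 51.6, 67.4 and 54.3, a log2 difference of 2.34 (SE 0.21). In each of these 3 genes the groups lay well apart, which the rule itself favoured.

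Several genes were close to absent in controls. E02C12.11 had 0.0941, 0 and 0.0473 CPM against 3.9, 6.56 and 3.73. That is 3 control counts against 343, a ratio of 100.5 by depth with a 95% interval of 34.1 to 489.8 that covers counting error only. F38C2.1 had 0, 0 and 0.0473 CPM against 2.73, 5.99 and 2.18, 1 control count against 264, a ratio of 232.1 with an interval of 41.3 to 9201.6. E02C12.12 had 0.235, 0.0473 and 0.0473 CPM against 4.41, 9.69 and 5.36, a log2 difference of 5.77 (SE 0.53). Their treated levels were all below 10 CPM, and the size of these ratios rests on a few control counts. Leaving out control replicate 1 moved E02C12.12 to 6.79 and E02C12.11 from 6.45 to 7.22, and leaving out control replicate 3, which held the 1 control count of F38C2.1, moved its fitted value from 7.36 to 9.33.

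There were 6 genes with an oxidation or reduction term, and their median log2 fold change was 4.06. Their summed level was 12.0, 10.7 and 11.3 CPM in the controls and 110.0, 153.7 and 106.9 CPM with CGP37157. F25D1.5, annotated with oxidoreductase activity, was at 4.94, 4.02 and 4.31 CPM against 49.3, 62.1 and 50.4, a log2 difference of 3.56 (SE 0.22). Y73C8C.10 and T10B5.8 share the terms NADPH dehydrogenase activity and FMN binding, an activity that transfers electrons from NADPH by way of a flavin. Y73C8C.10 was at 0.612, 1.13 and 0.521 CPM against 14, 31.6 and 12.8, a log2 difference of 4.56 (SE 0.47). T10B5.8 was at 1.04, 0.567 and 0.0947 CPM against 11.8, 16.3 and 17.2, a log2 difference of 4.69 (SE 0.52). Per kilobase the treated means of the pair were 13.9 and 10.1 CPM, with CGP37157 replicate 2 highest in Y73C8C.10 and replicate 3 highest in T10B5.8. T25G12.13, whose human counterparts in the annotation are DHRS7C and DHRS7B, members of the short-chain dehydrogenase family, was at 0, 0 and 0.284 CPM against 5.54, 8.19 and 4.48. Its log2 difference was 5.88 (SE 0.72), and all 6 control counts lay in replicate 3, without which the fitted value was 10.08 against controls that were all at 0 and is no bound. F13D11.4, with a 3-beta-hydroxysteroid dehydrogenase term, and C15B12.8, the counterpart of human PIPOX, had log2 differences of 2.36 and 2.23, the latter 2.96 without control replicate 3.

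Of the genes with an innate immune response term there were 7, with a median log2 fold change of 2.57 and a range of 0.97 to 5.03. They summed to 330.6, 308.7 and 468.2 CPM in the controls and 1306.9, 1338.4 and 1325.7 CPM with CGP37157, and F35E12.6 made up most of both sums. F55G11.2 was at 2.26, 3.03 and 6.68 CPM against 116.4, 160.4 and 128.6, a log2 difference of 5.03 (SE 0.39). Y54G2A.37 was at 0.141, 0.425 and 0.615 CPM against 9.99, 8.96 and 12.4, a log2 difference of 4.67 (SE 0.46). F20G2.5 was at 1.65, 1.42 and 3.08 CPM against 25.4, 37.7 and 30.6, a log2 difference of 3.89 (SE 0.31). In all of these, control replicate 3 was the highest control. C29F3.7 was at 27.5, 20.0 and 28.5 CPM against 110.6, 204.9 and 151.4, a log2 difference of 2.57 (SE 0.23). F54B8.4, F35E12.6 and F59B1.8 followed with 1.73, 1.61 and 0.97.

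The counts of genes by term have no share over all scored genes beside them, and nothing is read from their order or from that of the medians. K05B2.4, with an acyl-CoA metabolic process term, is counted with the other enzymes below. The 5 genes with a lipid metabolic process term had a median log2 fold change of 1.5 and summed to 65.7, 75.8 and 83.5 CPM against 255.2, 247.9 and 265.4. R08F11.1, the counterpart of human GBA2, the non-lysosomal glucosylceramidase that splits glucosylceramide into glucose and ceramide, had a log2 difference of 1.86 (SE 0.24). C40H1.8, Y54G2A.45, F25A2.1 and Y51H4A.5, all with a hydrolase term, had 3.24, 1.5, 1.46 and 1.19. C40H1.8 moved to 4.53 without control replicate 3.

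The 7 other enzymes had a median of 1.48. K05B2.4, the counterpart of the human acyl-CoA thioesterases ACOT1, ACOT2, ACOT4 and ACOT6, which release free fatty acids from coenzyme A, was at 3.39, 2.17 and 3.6 CPM against 15.7, 18.8 and 16.8, a log2 difference of 2.46 (SE 0.23). W01A11.1, the counterpart of the human epoxide hydrolase EPHX1, which opens the epoxides formed from foreign compounds, had the highest level per kilobase of these enzymes in treated worms, 236.3 CPM, and a log2 difference of 1.93. F21C10.9 (N-acetyltransferase activity), F58A6.1 (counterpart of ECH1), F19C7.4 (counterpart of the peptidase PRSS16) and ZK856.5 (hydrolase activity) had 2.00, 1.47, 1.48 and 1.05. The 3 genes with a transport term or a transporter counterpart were F27D9.2 (MFSD8), C08D8.1 (MFSD11) and C39E9.7, with log2 differences of 2.41, 1.59 and 1.44. For 5 genes the only term was a membrane or membrane raft, with a median of 1.52. Y38F1A.8 among them was at 2.31, 2.22 and 2.27 CPM against 35, 34.6 and 31.7, a log2 difference of 3.85 (SE 0.24). Its libraries were close together in both groups.

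The last genes inside the threshold had low scores, with log2 differences of 0.86 for C29F7.3, 1.05 for ZK856.5 and 2.02 for H06A10.1. C29F7.3, a UMP-CMP kinase counterpart (CMPK1), was at 30.1, 42.9 and 33.0 CPM against 65.2, 74.0 and 65.9. ZK856.5 was at 7.53, 3.97 and 6.06 CPM against 12.5, 12.5 and 11.6, and H06A10.1, with a larval development term, at 0.518, 0.189 and 0.379 against 1.39, 2.16 and 1.0. Their scores were 0.597, 0.591 and 0.564. The first genes outside were F53E10.1 and D1053.3, both with a score of 0.556, and Y41D4B.17 with 0.532. F53E10.1 was at 25.8, 32.7 and 26.6 CPM against 52.1, 52.0 and 48.3. D1053.3 was at 4.9, 1.56 and 3.31 CPM against 7.43, 11.6 and 7.5, and Y41D4B.17 at 5.7, 5.77 and 6.91 against 15.3, 10.2 and 10.2. The threshold thus separated genes with nearly the same scores.

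The rule did not use position, and the 60 genes were spread unevenly over the chromosomes. Chromosome V held 25 of them (41.7%, against 19.7% of the scored genes tested), chromosome IV 14, X 12, II 7, III 2 and I none. Chromosome I had 723 scored genes that were tested. Class-named genes, which the rule did not score, had their own distribution in the same fit. Of all 7388 class-named genes tested 1.16% were higher (86 genes) and 0.271% were lower (20 genes). On chromosome V 57 of 1352 were higher (4.22%), against 0.156 to 0.818% on each of the other chromosomes. For chromosome I this was 3 of 1312 (0.229%). These shares are given without a test.

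**Figure D3:**
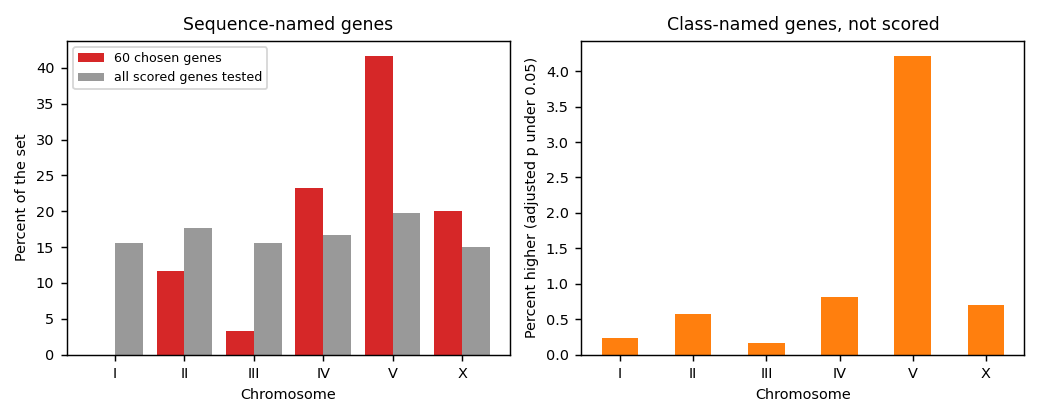
On the left, percent of the 60 chosen genes (red) and of the 4654 scored genes tested (grey) on each chromosome, and on the right, percent of class-named genes tested that were higher with CGP37157 at an adjusted p under 0.05 in edgeR. Chromosome V has the tallest bar on both sides, 41.7% of the chosen genes and 4.22% of the class-named genes.

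Of the 60 genes, 14 (23.3%) lay within 10 kb of another, in 5 runs, and of the 4594 scored genes tested that were not chosen 1.37% lay within 10 kb of one of the 60. The longest run, on chromosome V from 9369477 to 9382313 on the minus strand, held E02C12.6, E02C12.10, E02C12.11 and E02C12.12. A second on chromosome V, from 12932941 to 12941847, also on the minus strand, held T16G1.7, T16G1.6 and T16G1.4. C29F7.1, C29F7.2 and C29F7.3 lay on X from 13409936 to 13419934, with C29F7.3 on the opposite strand, and F49F1.5 with F49F1.7 on IV from 4119460 to 4125757. ZK1290.10 and ZK1290.14 lay on II from 7551941 to 7555592.

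Genes inside these runs did not all stand with the others. E02C12.8, 486 bases from E02C12.6 on the same strand, was at 35.9, 10.8 and 22.0 CPM in the controls and 39.5, 35.5 and 22.2 with CGP37157, so that its groups overlapped, with a log2 difference of 0.53 (SE 0.33). E02C12.9, the gene next to it, had 0, 0 and 0 counts against 11, 9 and 2 and was too low to be tested. T16G1.5, which lies between T16G1.6 and T16G1.4 on the same strand, was at 50.7, 12.4 and 49.5 CPM against 43.3, 47.9 and 26.8, a log2 difference of 0.10 (SE 0.38). Its groups overlapped as well, whereas T16G1.6, 399 bases away, had a log2 difference of 3.94. These genes were also scored by the rule and are given as a description. How the authors' counting shared reads between similar genes of a run was not tested, and E02C12.11 and E02C12.12 overlap each other in the annotation.

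**Figure D4:**
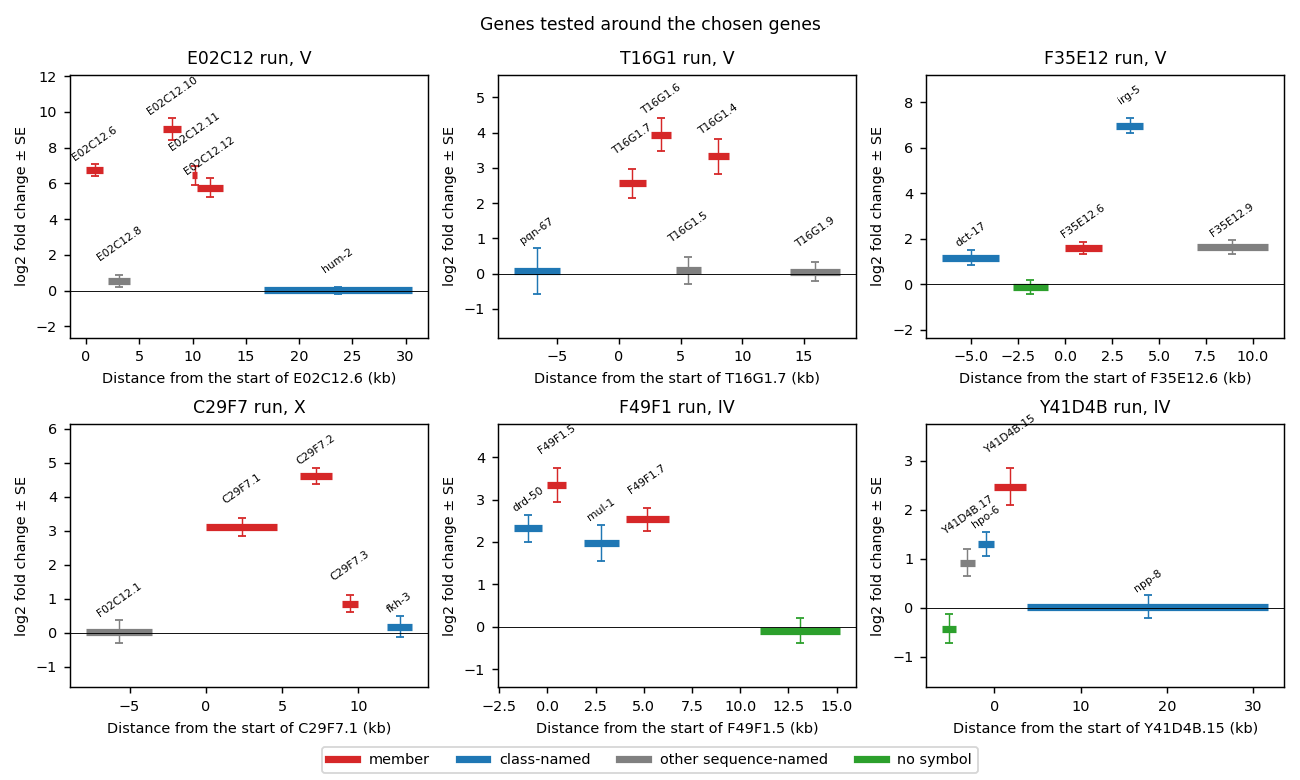
log2 fold change with its standard error for the genes tested in and beside 6 runs or single chosen genes, placed by distance in kb from the start of the leftmost chosen gene, with bar length giving gene length. Red bars are chosen genes, blue class-named, grey other sequence-named and green genes without a symbol, and E02C12.8 and T16G1.5 lie near 0 between red bars, while irg-5 and drd-50 lie high beside them.

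Class-named genes beside the 60 were not scored by the rule, although they come from the same libraries. Within 10 kb 81 class-named genes were tested, of which 3 were higher (3.7%, beside 1.16% of all class-named genes) and 0 were lower, with a median log2 fold change of 0.08 against -0.01 over all class-named genes and 52 of 81 above 0. The same 3 were higher within 5 kb, where 43 were tested, and within 20 kb, where 145 were. The share over all class-named genes was not matched to the chromosomes of the 60 genes. It was 4.22% on chromosome V, where irg-5 lies, and 0.818% on chromosome IV, where drd-50 and hpo-6 lie.

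The gene irg-5, an infection response gene, lies 762 bases from F35E12.6 on the same strand (chromosome V, 13737010 to 13738474). It was at 24.7, 19.5 and 24.3 CPM in the controls and 3177, 3299.9 and 2417.7 with CGP37157, a log2 fold change of 6.98 (SE 0.32, adjusted p = 1.09e-06, edgeR). F35E12.6, at 215.6, 204.4 and 347.3 CPM in the controls and 835.3, 718.8 and 830.8 CPM in treated worms, had a log2 difference of 1.61 (SE 0.27). Farther along the same strand F35E12.9, at 16.9, 5.91 and 10.7 CPM against 33.5, 46.8 and 24.6, ranked 64, just outside the 60. The gene dct-17 on the other side was at 15.0, 17.6 and 26.9 CPM against 25.1, 63.5 and 52.7, and its log2 fold change of 1.17 (SE 0.34) did not pass the test (adjusted p = 0.257, edgeR).

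The gene drd-50, on the opposite strand 280 bases from F49F1.5, was at 57.2, 81.4 and 94.8 CPM in the controls and 460.2, 329.6 and 423.3 with CGP37157, a log2 fold change of 2.32 (SE 0.31, adjusted p = 0.00225, edgeR). The gene mul-1, between F49F1.5 and F49F1.7 on their strand, was at 10.6, 19.2 and 8.28 CPM against 71.9, 58.2 and 33.5. Its groups did not overlap, but its log2 fold change of 1.98 (SE 0.43) had an adjusted p of 0.0632 in edgeR. The groups of drd-50 did not overlap either, while for F49F1.5 and F49F1.7 the rule itself fixed this.

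The gene hpo-6, from the class of genes whose loss makes worms hypersensitive to pore-forming toxin, ends 4 bases before Y41D4B.15 on the same strand. It was at 59.5, 77.1 and 93.4 CPM in the controls and 188.7, 185.3 and 215.2 with CGP37157, a log2 fold change of 1.30 (SE 0.25, adjusted p = 0.0334, edgeR). Y41D4B.15 had 0.659, 1.13 and 1.75 CPM against 6.55, 6.44 and 7.5, and Y41D4B.17, on the other side of hpo-6, was the third gene outside the threshold. The hpo-6 call was lost when any 1 library other than control replicate 2 was left out, with adjusted p of 0.0543 to 0.175.

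Other neighbours close to the threshold are given by value. The gene acp-5 overlaps F13D11.4 on the opposite strand by 99 bases, so that reads there can be shared, and was at 11.7, 8.65 and 13.7 CPM against 23.3, 26.1 and 19.7 (log2 fold change 0.99, adjusted p = 0.0593, edgeR). The gene dod-22, 52 bases from F55G11.2 on the opposite strand, lay the other way, at 1.65, 2.6 and 2.18 CPM against 0.462, 1.06 and 1.0, a log2 fold change of -1.43 that did not pass (adjusted p = 0.265, edgeR). F55G11.2 itself had a fold change of 32.7. With DESeq2, 7 of the class-named neighbours were higher (beside 1.69% of all class-named genes), among them mul-1, acp-5, dct-17 and lmp-2. Without a low-count filter edgeR also gave 7 (beside 1.16%), with scl-6 in place of lmp-2.

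Genes with no symbol were not scored either, and looking at them was decided after their values had been seen. Of 338 such genes tested, 1.18% were higher (4 genes), and 2 of these 4 lay within 1 kb of one of the 60, both of them pseudogenes. WBGene00014771, 980 bases from F55G11.2 on the same strand, had 1, 1 and 10 counts in the controls and 98, 71 and 105 with CGP37157, a log2 fold change of 4.28 (SE 0.63, adjusted p = 0.00493, edgeR). WBGene00018194, 771 bases from Y46D2A.2 on the opposite strand, was at 7.15, 6.24 and 4.17 CPM against 24.1, 26.8 and 19.1, a log2 fold change of 1.93 (SE 0.27, adjusted p = 0.00398, edgeR). Whether reads of a neighbouring gene were counted on these pseudogenes was not tested.

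Regulators known to act upstream of detoxification and immune genes did not pass the test. The list held 27 genes, all tested, among them the p38 MAP kinase pmk-1 with its upstream kinases nsy-1 and sek-1, the stress factor skn-1, the intestinal GATA factors elt-2 and elt-7 and nuclear receptors of the nhr family. In edgeR 0 were higher and 0 lower at an adjusted p of 0.05, beside 1.16% and 0.234% of all genes tested. At such shares a list of 27 genes would hold few or no called genes, so nothing is read from the count. In DESeq2 the counts were also 0 and 0, and before adjustment 1 gene had a p below 0.05 in edgeR. Across the list, log2 fold changes ran from -0.33 to 0.56 with a median of 0.07, and 19 of 27 were above 0. The gene elt-7, which was the 1 with a p below 0.05 before adjustment, was at 6.35, 4.3 and 5.82 CPM in the controls and 7.77, 8.11 and 7.91 with CGP37157, a log2 fold change of 0.51 (SE 0.22, adjusted p = 1.0, edgeR). The gene nhr-86, a nuclear hormone receptor, was at 23.2, 27.6 and 24.2 CPM against 35.4, 38.1 and 38.5, a log2 fold change of 0.51 (SE 0.23, adjusted p = 1.0). The gene irg-7 was at 595.9, 558.5 and 889.1 CPM against 959.4, 920.1 and 1191.4, a log2 fold change of 0.56 (SE 0.27, adjusted p = 1.0). These 3 genes had the largest log2 fold changes of the list. In each of them the groups did not overlap, and none of them passed the test. Only RNA levels were measured, and the activity of the regulators was not tested. The kinase gene pmk-1 was at 17.3, 6.15 and 16.6 CPM against 8.86, 19.7 and 11.5, and skn-1 at 173.0, 186.8 and 224.3 against 174.0, 220.9 and 245.8, both with overlapping groups.

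Among the treated libraries the 60 genes were not equally high. By library totals CGP37157 replicate 2 was the highest of the 3 in 42 of 60 genes, beside 55.1% of the scored genes tested, and after TMM scaling in 30 of 60, beside 36.7%. Of the controls, replicate 2 was the lowest in 32 of 60 genes (53.3%) by library totals, beside 61.2% of the scored genes tested, and in 16 (26.7%) after TMM scaling, beside 36.6%.

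To see how the genes stood in a library that had no part in their choice, the 60 highest scores were chosen again without each library in turn, a description added after the data had been seen. With a control left out, the left-out control lay below the lowest treated library in 60, 60 and 58 of the 60 genes for replicates 1, 2 and 3, where 19.1, 52.4 and 17.5% of all scored genes tested did so. With a treated library left out it lay above the highest control in 60, 60 and 55 genes, beside 16.2, 26.0 and 18.5%. The lists shared 51 to 58 of the 60 genes with the full one. The left-out library was compared with libraries that had chosen the genes, so the shares over all scored genes are not a like background. Nothing further is read from these counts.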

How the data were processed

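RNA was sequenced from whole N2 worms in 6 libraries, 3 Control and 3 with 50 µM CGP37157, with group and replicate as the labels give them. Raw read counts for each gene were deposited by the authors, made with HISAT2 and featureCounts according to the submitters' processing notes, which give no versions; the genome build and strand setting are not given in the sources used here, although the labels name a stranded kit. The deposited counts were identical in both tables. The authors' normalized counts, fold changes and p-values, from their edgeR and DESeq2 comparisons, were not used.

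CPM was computed from library totals. edgeR 4.0.16 in R 4.3.3 (quasi-likelihood test, TMM, condition alone) was fitted to all 12385 genes that reached 1 CPM in 3 or more of the 6 libraries, with Benjamini-Hochberg adjustment over all of them, and DESeq2 1.42.0 was an alternative, as were other normalizations and filters, a block for the replicate number, and omission of each library. Standard errors derive from the test statistic. The scripts were tested on simulated counts. Symbols matched 44017 of 46904 identifiers and positions 46817, from Ensembl release 115 on WBcel235, and levels per kilobase used its merged exons. Every pair of replicates differed by more than counting noise in a chi-square test. Overlapping and antisense genes may share counts. The 60 genes, the regulator and marker lists and the tests were chosen with earlier results of these data known. Values in every library were given for the 25 highest scores and 3 genes on each side of the threshold, and for class-named neighbours and regulators with an adjusted p under 0.05 and some of those among the 12 smallest p. F35E12.6, E02C12.8, E02C12.9, T16G1.5, F35E12.9, pmk-1 and skn-1, the pseudogenes, and Y41D4B.15 were named beside these for their position or role, after their values were seen. Terms and human counterparts came from the annotation supplied with the study. Protein families, protein relatives, promoter motifs and sequences were not analysed here.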

Additional observations from a re-analysis of the deposited data

How the results depend on the processing

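The median log2 fold change of the 60 genes was 2.38 and lay between 2.13 and 2.45 under all alternatives, each over the genes fitted in that run. Of 677 log2 fold changes of single genes under alternatives, 665 moved by less than the replicate spread, 12 moved by more and 0 reversed, and those 12 came from leaving out a control. Genes with all 3 controls under 1 CPM did not pass the filter once a treated library was left out. They have no value in those runs, so how far they would have moved there is not known, and the medians and counts passing lack them. Without one library the number of the 60 genes passing an adjusted p of 0.05 in edgeR was 30 to 52 (51 with all), the genes higher over the whole data between 81 and 160 (144 with all), the genes lower 11 to 30 (29 with all), and the class-named neighbours higher 2 to 4 (3 with all). Genes lower numbered 17 with library totals only, 60 with DESeq2 and 66 without a low-count filter, and class-named neighbours higher numbered 7 with DESeq2 and 7 without the filter; the cause was not tested. Genes higher in the whole table numbered 200 with DESeq2 and 208 without the filter. irg-5 and drd-50 passed in every alternative run, and hpo-6 did not pass with the replicate block or without any library other than control replicate 2.

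The labels give control and treated libraries of one number a shared suffix of unstated meaning. Residuals of same-numbered libraries correlated at 0.111, -0.5 and 0.381, so they were not treated as pairs. With the replicate block 42 of the 60 genes passed, the genes higher were 117 and lower 20, the class-named neighbours higher 2, and the median was 2.39, while hpo-6 had an adjusted p of 0.13.

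Under 10 other forms of the score, 51 to 58 of the 60 genes were kept, and 46 were kept in all 10. With 3 libraries per group, the size of the difference rests on few control counts in genes with all controls under 1 CPM. These include E02C12.10, F38C2.1 and E02C12.11, which are among the largest differences. R09E12.9, with 26, 21 and 25 control counts, lay between 7.6 and 7.98 under the alternatives. Fits for class-named protein relatives were not run.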
